A study of Mus musculus with 12 samples.

Results

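The genes described here are 7 markers of thalamic neurons, Tcf7l2, Lef1, Gbx2, Zic1, Rora, Prkcd and Calb2, measured in hypothalamic tissue punches. They were chosen by their symbols, out of 23256 genes in the deposited table, and each gene is given by its transcript row of highest mean. All 7 passed the filter on low values, a mean of at least 1 RPKM over the 12 libraries (RPKM is a read density that allows for transcript length and library depth), which 13273 genes passed.

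In the miR group, hybrid zygotes (C57/Bl6:129S6/SvEvTac) received an injection of 9 microRNA mimics in buffered saline, at 0.11 ng/uL each. The mimics were miR-698, miR-532-3p, miR-375, miR-204 and miR-193-5p, together with miR-32, miR-30c, miR-30a and miR-29c. In the PBS group, zygotes of the same hybrid received the saline alone. In both groups CD1 surrogate dams carried the embryos, and the brains came from male offspring aged 18 to 20 weeks. The paraventricular nucleus of the hypothalamus (PVN) was taken from each brain as a needle punch 1.0 mm wide from 2 successive slices of 300 µm, and its polyadenylated RNA was sequenced. There were 6 animals in the miR group (replicates 1 to 6) and 6 in the PBS group (replicates 7 to 12). The labels call the animals biological replicates and give no litter, so p-values measure the spread between these animals.

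The PVN lies close below the thalamus, and a needle punch of it can take in some midline thalamic tissue. Neurons of the dorsal thalamus are mostly glutamatergic. During development they depend on a homeobox factor, Gbx2, and on the Wnt pathway, in which secreted Wnt proteins stabilise β-catenin so that it binds TCF/LEF proteins on DNA. Unlike most of the forebrain, the thalamus keeps high Tcf7l2 in adult neurons. The prethalamus, from which the reticular nucleus and zona incerta derive, is instead GABAergic and uses Dlx factors.

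Depth was 22.8 to 45.1 M reads in the miR libraries and 27.6 to 38.1 M in the PBS libraries. Markers of the labelled tissue were present in every library. The 8 PVN neuron markers together summed to 2058 to 5227 RPKM in miR punches and 2256 to 5864 RPKM in PBS punches, and none was at 0. The sum rests mostly on Oxt and Avp, at means of 2675 and 919 RPKM. Sim1, the lowest of the 8, averaged 8.05 RPKM. The 4 libraries of PBS replicates 8, 9, 10 and 12 stood apart by nuclear-retained RNAs such as Meg3. Their mean z-score over a list of 6 genes was 0.84 to 1.80, against -0.86 to -0.37 in the other 8 libraries. That list also holds Leng8 and Snrnp70, and its score is called that of nuclear-retained RNAs below. Results that rest on these 4 libraries are given without them where the call changes. In bulk tissue, fewer cells of a type and less RNA per cell cannot be told apart.

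All 7 markers were detected in every punch, and their levels differed widely from animal to animal. Over the 12 libraries, Calb2 averaged 215 ± 53.3 RPKM, Zic1 29.5 ± 9.36, Tcf7l2 17.2 ± 11.1, Rora 7.30 ± 1.64, Gbx2 5.20 ± 4.35, Prkcd 4.97 ± 1.35 and Lef1 1.12 ± 0.439 (SD, n = 12). RPKM is per length, so these levels can be ordered. Neighbouring ranks from Zic1 down to Prkcd overlapped in their ranges, while Calb2 was above Zic1 and Lef1 was below Prkcd in every library. On the log2(RPKM + 0.5) scale, the median SD of the 7 genes between libraries was 0.38, against 0.13 over all 13273 genes tested, and all 7 ranked among the 771 most variable.

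Among the nuclear partners of β-catenin, Tcf7l2 was the more abundant and the more variable. It lies on the plus strand of chromosome 19, with the row used here spanning chr19:55969811-56008145 (mm9) and 7 further rows of the same gene following it with r of at least 0.9997. Tcf7l2 had 12.2, 7.72, 40.2, 28.5, 16.3 and 2.53 RPKM in miR replicates 1 to 6, and 18.9, 9.99, 28.1, 22.5, 15.5 and 4.19 RPKM in PBS replicates 7 to 12. The punches of miR replicate 3 and miR replicate 6 were the highest and lowest of all, 15.9-fold apart, and the groups overlapped throughout. By comparison the median gene differed 1.39-fold between its highest and lowest library.

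Lef1, which binds the same kind of site as Tcf7l2, was the least abundant of the 7 genes (chr3:130813389-130926249, plus strand, mm9). Its level was 0.790, 0.512, 1.14, 1.51, 1.03 and 0.632 RPKM in miR replicates 1 to 6, and 1.16, 0.822, 1.97, 1.75, 1.12 and 0.958 RPKM in PBS replicates 7 to 12. No miR library exceeded the PBS maximum, and 3 miR libraries lay below the PBS minimum of 0.822 RPKM. Lef1 rests on about 48.0 to 232 reads per library, so its values carry more counting error than those of the other members, apart from Gbx2 in the lowest punches.

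The dorsal thalamic homeobox factor Gbx2 varied most (chr1:91824537-91827751, minus strand, mm9). Gbx2 had 3.50, 1.83, 16.5, 8.22, 4.63 and 0.498 RPKM in miR replicates 1 to 6, and 7.09, 2.27, 7.38, 5.37, 4.16 and 0.989 RPKM in PBS replicates 7 to 12. Its highest and lowest levels, again in miR replicates 3 and 6, were 33.0-fold apart, and it ranked 17 of 13273 by SD, beside rank 19 for Tcf7l2. The lowest value stands for about 24.2 reads and the highest for about 1225.

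Zic1 encodes a zinc-finger factor of the midline and medial thalamus that is also found in other parts of the brain (chr9:91255183-91260637, minus strand, mm9). Zic1 had 27.3, 16.1, 47.8, 40.6, 28.2 and 20.7 RPKM in miR replicates 1 to 6, and 37.8, 22.2, 34.5, 32.1, 25.2 and 20.9 RPKM in PBS replicates 7 to 12. The 5 highest punches were the same as for Tcf7l2, but the span was smaller, 2.96-fold.

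Rora, a retinoid-related nuclear receptor of sensory thalamic neurons that is also expressed in other neurons, had the most even levels within the miR group (chr9:68501609-69226835, plus strand, mm9). Its level was 6.47, 6.93, 8.58, 9.73, 10.02 and 6.55 RPKM in miR replicates 1 to 6, and 7.37, 5.43, 7.47, 7.78, 7.12 and 4.19 RPKM in PBS replicates 7 to 12. The highest library was miR replicate 5, and 3 miR libraries lay above every PBS library.

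Prkcd encodes protein kinase C delta, a signalling kinase of many thalamic relay neurons (chr14:31408540-31439394, minus strand, mm9). Prkcd had 3.91, 3.72, 6.12, 5.47, 4.89 and 3.92 RPKM in miR replicates 1 to 6, and 4.62, 4.46, 7.59, 7.16, 3.67 and 4.04 RPKM in PBS replicates 7 to 12. PBS replicates 9 and 10 were the highest, and the span of 2.07-fold was the smallest of the 7 genes.

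Calb2, the calcium-binding protein calretinin, marks midline thalamic neurons and also neurons of the hypothalamus (chr8:112666438-112692106, minus strand, mm9). Calb2 had 194, 169.6, 329, 260.2, 208 and 134 RPKM in miR replicates 1 to 6, and 244, 186, 237, 259, 186 and 168 RPKM in PBS replicates 7 to 12. The highest and lowest punches were again miR replicates 3 and 6, 2.45-fold apart.

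**Figure D1:**
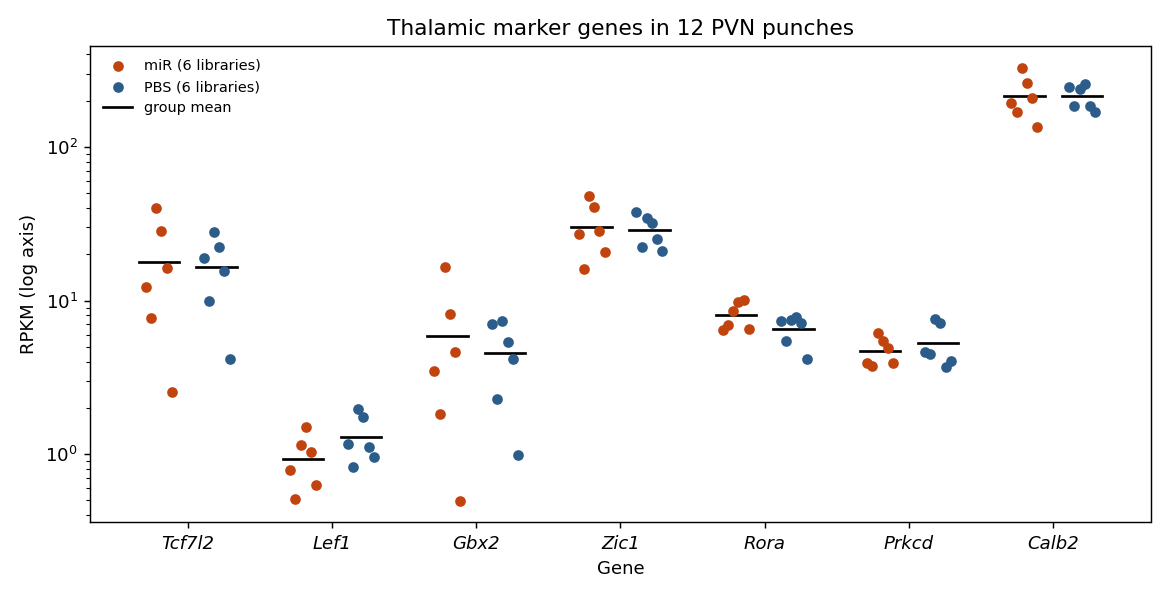
RPKM (log axis) of each of the 7 genes in every library, miR left of PBS, with points for animals and horizontal lines for the group means of 6 animals. The 2 groups overlap for every gene, and the spread is widest for Gbx2 and Tcf7l2.

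No marker differed between miR and PBS punches by more than the spread between animals. Tcf7l2 averaged 17.9 ± 14.0 RPKM in miR and 16.5 ± 8.60 RPKM in PBS punches (SD, n = 6 each), a log2 difference, miR minus PBS, of -0.11 ± 0.56 (SE) with a limma adjusted p of 0.924. The interval of that difference, -1.32 to 1.10 at 95%, is wide because the animals varied. Gbx2 averaged 5.86 ± 5.83 RPKM in miR and 4.54 ± 2.58 RPKM in PBS punches, with a log2 difference of 0.01 (interval -1.25 to 1.27).

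All the other genes had smaller spans than Tcf7l2 and Gbx2, and narrower intervals. Calb2 averaged 216 ± 69.3 RPKM in miR and 213 ± 37.8 RPKM in PBS punches, with a log2 difference of -0.02 and an interval of -0.41 to 0.37. Zic1 averaged 30.1 ± 12.0 RPKM in miR and 28.8 ± 6.97 RPKM in PBS punches, and its interval was -0.49 to 0.50. Prkcd averaged 4.67 ± 0.983 RPKM in miR and 5.26 ± 1.68 RPKM in PBS punches, with a log2 difference of -0.13 and an interval of -0.49 to 0.24.

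Rora and Lef1 had the smallest p-values, in opposite directions. Rora averaged 8.05 ± 1.61 RPKM in miR and 6.56 ± 1.43 RPKM in PBS punches, a log2 difference of 0.28 ± 0.15 (SE) with a limma adjusted p of 0.291. Lef1 averaged 0.935 ± 0.367 RPKM in miR and 1.30 ± 0.458 RPKM in PBS punches, a log2 difference of -0.33 ± 0.18 (SE) with a limma adjusted p of 0.321. Neither passed the threshold of 0.05. Without PBS replicates 8, 9, 10 and 12 the log2 difference of Rora was 0.12 ± 0.17 and that of Lef1 was -0.23 ± 0.23 (SE).

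Of the 7 genes, 0 passed in limma with adjustment over all genes tested, where 0% of the 13273 genes passed. At an unadjusted p below 0.05, 0 of the 7 passed, against 20.2% of all genes tested (9.12% higher and 11.1% lower in miR). Without PBS replicate 7, or without PBS replicate 11, 6.85% and 3.23% of all genes passed at an adjusted p below 0.05 in limma, and still 0 of the 7. The 7 genes had a median log2 difference of -0.02, with 3 higher and 4 lower in miR, against a median of 0.0099 over all genes tested. The groups overlapped for all 7, and they did not overlap for 0.482% of all genes tested. The sign of the difference was not stable for Tcf7l2, Gbx2, Zic1, Prkcd and Calb2: each reversed in at least 1 alternative, and none of the 7 genes passed in any.

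**Figure D2:**
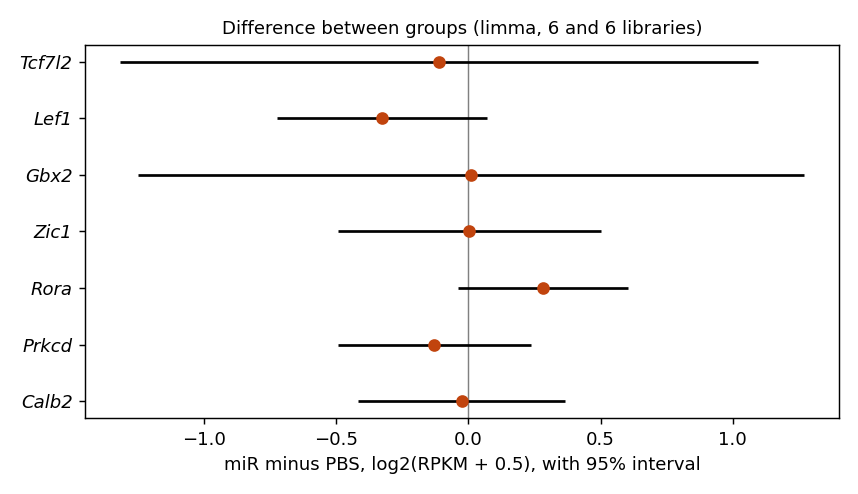
Log2 difference, miR minus PBS, on the log2(RPKM + 0.5) scale for each of the 7 genes, with points for the estimate and bars for its 95% interval from limma. Every interval includes 0, and those of Tcf7l2 and Gbx2 are the widest.

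The 7 genes varied together from punch to punch. They were chosen with earlier results of these data known. No share over pairs of all tested genes was worked out, so the counts of pairs have no background. Of the 21 pairs, 19 were positively correlated across the 12 libraries by Pearson's r and 21 by Spearman's rho (2-sided permutation tests with 100000 resamples, Benjamini-Hochberg adjusted p below 0.05 over the 21 pairs), with a median r of 0.71 and a median rho of 0.80. The closest pair was Tcf7l2 and Gbx2, with r = 0.98 (permutation p = 1e-05, the smallest the resamples can give, adjusted p = 7e-05) and rho = 0.99 (adjusted p = 5.2e-05). Without miR replicate 6 and PBS replicate 12, the 2 libraries farthest from the median of Tcf7l2, r was 0.97.

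Calb2 followed the pair closely, with r = 0.96 and rho = 0.97 against Gbx2 (permutation test, adjusted p = 7e-05 for both) and r = 0.94 against Tcf7l2. Zic1 correlated with Calb2 at r = 0.91 and with Gbx2 at r = 0.90 (adjusted p = 0.00034 for both, permutation test). By Pearson's r, Lef1 was closest to Prkcd, with r = 0.85 and rho = 0.80 (adjusted p = 0.0012 and 0.0055, permutation test), and by Spearman's rho it was closest to Tcf7l2, with rho = 0.84 and r = 0.73 (adjusted p = 0.0037 and 0.016). Without PBS replicates 8, 9, 10 and 12, r of Lef1 and Prkcd was 0.68 and did not pass (permutation test, adjusted p = 0.086).

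Rora stood furthest from the rest. Its r with Lef1 was 0.39 (permutation test, adjusted p = 0.203) and its r with Prkcd was 0.45 (adjusted p = 0.147), the only pairs that did not pass by Pearson's r. By Spearman's rho both pairs reached 0.63 and passed (permutation test, adjusted p = 0.033 for both). Lef1 and Prkcd averaged lower in miR and Rora higher, and the values within groups were larger: Rora and Lef1 had r = 0.82 among the 6 miR and 0.70 among the 6 PBS punches.

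Within each group alone all 21 pairs had a positive r. It ran from 0.64 to 0.99 with a median of 0.85 in the miR punches, and from 0.54 to 0.97 with a median of 0.83 in the PBS punches. With the group means removed, 21 of 21 pairs passed by Pearson's r. Without PBS replicates 8, 9, 10 and 12, the libraries high in nuclear-retained RNAs, 15 of 21 passed with 8 libraries. The pairs of Rora with Tcf7l2, Gbx2, Zic1 and Calb2 then had r of 0.57 to 0.65 and did not pass (permutation test, adjusted p = 0.087 to 0.138), while Rora and Prkcd passed with r = 0.78 (adjusted p = 0.039).

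**Figure D3:**
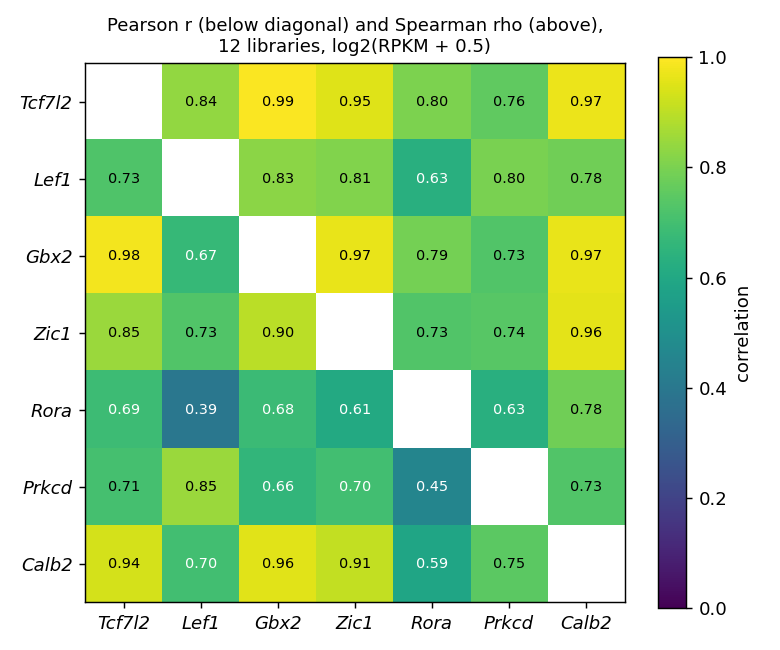
Pearson's r (below the diagonal) and Spearman's rho (above it) across the 12 libraries for each of the 21 pairs of the 7 genes, on log2(RPKM + 0.5), as colour and number. Pearson's r runs from 0.39 for Lef1 and Rora to 0.98 for Tcf7l2 and Gbx2.

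A score per library, the mean of the z-scores of the 7 genes, ordered the punches by their thalamic marker content. The scores of miR replicates 3, 4, 5, 1, 2 and 6 were 1.21, 0.95, 0.26, -0.37, -0.98 and -1.28. Those of PBS replicates 9, 10, 7, 11, 8 and 12 were 0.94, 0.80, 0.41, -0.22, -0.61 and -1.11. Punches of both groups lay along the whole order, and the score averaged -0.04 ± 1.02 in miR and 0.04 ± 0.81 in PBS punches (SD, n = 6 each).

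How far each gene's level hung on this order differed between genes. A straight line on Tcf7l2, fitted in RPKM after the values had been seen, explained 91.7% of the variance of Calb2, 91.2% of Gbx2 and 86.8% of Zic1. For Gbx2 it had an intercept of -1.23 ± 0.743 RPKM (SE), not above 0. For Zic1 the line left 16.0 ± 1.96 RPKM at a Tcf7l2 level of 0, which is 54.2% of its mean. For Calb2 it left 136 ± 8.82 RPKM, 63.2% of its mean. Rora kept 77.1%, Prkcd 68.9% and Lef1 58.7% of their means at that point, which lies outside the measured range of Tcf7l2. A line in Tcf7l2 explained 43.0% of the variance of Rora, 46.0% of Lef1 and 54.9% of Prkcd.

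**Figure D4:**
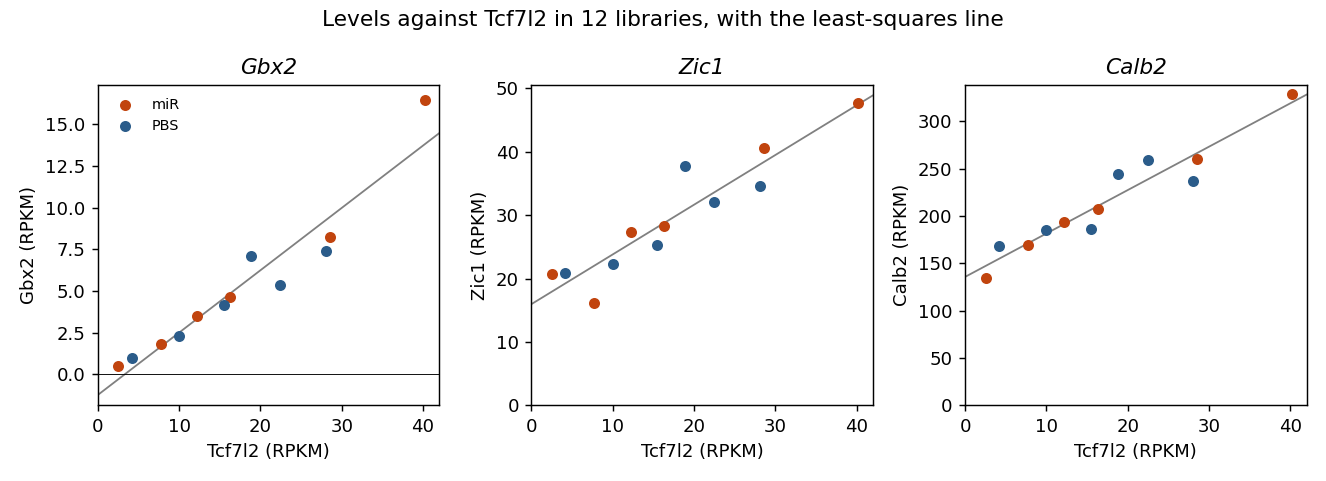
RPKM of Gbx2, Zic1 and Calb2 (vertical axes) against RPKM of Tcf7l2, with 1 point per library coloured by group and the fitted straight line. Gbx2 comes close to 0 where Tcf7l2 is lowest, while Zic1 and Calb2 stay at or above 16.1 and 134 RPKM.

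Other thalamic genes followed the same order. The lists and the 7 genes were chosen with earlier results of these data known. Their relations, and the p-values given with them, are thus not independent support. A list of 17 genes of thalamic relay neurons, all tested and none a member, had a median r of 0.89 with the score of the 7 genes, and 14 of the 17 had an r of at least 0.8, against 1.69% of 13266 other genes. Slc17a6, the vesicular glutamate transporter of thalamic and many hypothalamic neurons, had 54.3, 49.8, 87.9, 67.5, 57.0 and 33.8 RPKM in miR replicates 1 to 6, and 60.6, 42.7, 61.6, 52.7, 55.1 and 30.3 RPKM in PBS replicates 7 to 12. Its r with the score was 0.86. The homeobox gene Shox2 had 1.41, 0.550, 6.69, 4.41, 2.13 and 0.0813 RPKM in miR replicates 1 to 6, and 3.62, 0.783, 4.79, 2.74, 2.04 and 0.141 RPKM in PBS replicates 7 to 12.

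Shox2 reached r = 0.97 with the score and was all but missing from the punches that were lowest in Tcf7l2 and Gbx2, miR replicate 6 and PBS replicate 12. Slitrk6, a neuronal transmembrane protein, had r = 0.96, and Adarb1, an RNA-editing enzyme of broad expression, had r = 0.80. The score of the 17 genes correlated with each of the 7 markers, at r of 0.77 to 0.96 (permutation test over 84 relations of 7 genes with 12 lists, adjusted p below 0.05 for 7 of 7 by Pearson's r and 6 of 7 by Spearman's rho). Leaving out 1 library gave 5 to 7 of 7 by Pearson's r, and leaving out PBS replicates 8, 9, 10 and 12 gave 5. Within groups the 2 scores had r = 0.99 in miR and 1.00 in PBS punches.

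Channels and receptors known from thalamic neurons followed in part. The score of the 6 tested genes of 7 correlated with 5 of the 7 markers in the same family of tests. Prkcd (adjusted p = 0.051, permutation test) and Rora (adjusted p = 0.126) did not pass. By Pearson's r, leaving out 1 library gave 5 to 6 of 7, and the range over all alternatives was 4 to 7. Gabra4, a GABA receptor subunit, had r = 0.95 with the score of the 7 genes. The 2 most abundant genes of the list, the potassium channel Kcnk9 and the pacemaker channel Hcn2, had r = 0.04 and -0.05.

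Of 11 genes listed for reticular thalamus and zona incerta, 8 had a negative r with the score of the 7 genes. So did 7371 of 13266 other genes, and that count alone does not set the list apart. Whether the listed genes mark that tissue in these punches was not tested. For the 11 genes of reticular thalamus and zona incerta, r with the score of the 7 genes had a median of -0.57, and 4 of 11 had an r of -0.8 or lower, against 0.498% of other genes. These 4, picked out after their values were seen, were the homeobox factors Isl1 (-0.89), Meis2 (-0.85), Dlx1 (-0.85) and Dlx2 (-0.80). Dlx1 had 20.2, 18.9, 14.7, 13.8, 16.3 and 21.2 RPKM in miR replicates 1 to 6, and 20.2, 19.4, 12.2, 14.1, 16.8 and 24.8 RPKM in PBS replicates 7 to 12, lowest where Tcf7l2 was high. Other members of the list did not share that sign: r was 0.65 for Spp1, a secreted phosphoprotein, 0.53 for the homeobox factor Lhx6, and 0.22 for the peptidase Ecel1.

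The score of these 11 genes had r between -0.71 and -0.54 with the 7 markers, and 0 of 7 passed (permutation test, lowest adjusted p = 0.051; by Spearman's rho also 0 of 7, and by either measure 5 of 7 at an unadjusted p below 0.05). The summed level of the list was 95.3 to 111 RPKM in miR and 90.4 to 130 RPKM in PBS punches, with none of the 11 genes at 0.

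Thalamic marker content and PVN marker content were not related in a detectable way. The score of the 8 PVN neuron genes had r between -0.24 and 0.09 with the 7 markers, and 0 of 7 passed (permutation test, lowest adjusted p = 0.690; 0 of 7 at an unadjusted p below 0.05). Oxt, which encodes oxytocin, had r = 0.42 with the score of the 7 genes, Otp, a homeobox factor of PVN development, had 0.30, and Avp, which encodes vasopressin, had 0.24. These were the only 3 of the 8 with a positive r. The other 5 were negative, down to -0.45 for Arnt2, and the median over the list was -0.23. The punch with the highest PVN score, PBS replicate 11 at 1.37, was in the middle of the thalamic order, and so was the one with the lowest, PBS replicate 7 at -1.43.

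**Figure D5:**
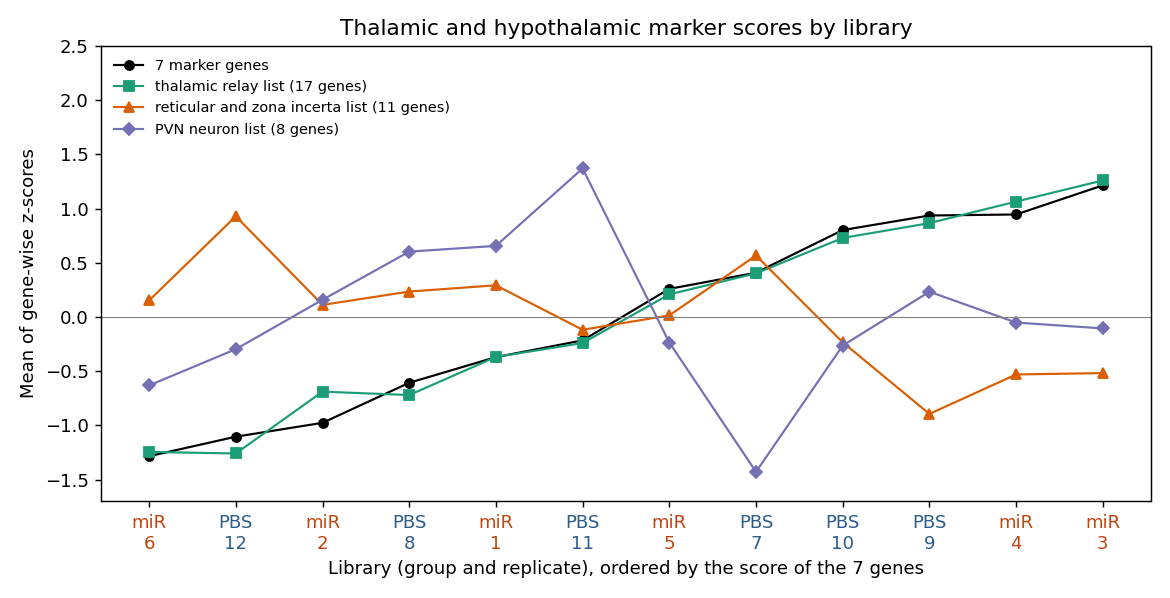
Mean z-score per library (vertical axis) of the 7 genes, the thalamic relay list, the reticular and zona incerta list and the PVN neuron list, with the 12 libraries ordered from the lowest to the highest score of the 7 genes. The relay list follows the 7 genes almost exactly, while the PVN list peaks at PBS replicate 11 and is lowest at PBS replicate 7.

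Few genes of the habenula and midline thalamus lists passed the filter on low values. Of 8 habenular genes, 3 were tested, and their score had r of 0.35 to 0.71 with the 7 markers, with 0 of 7 passing (permutation test, lowest adjusted p = 0.051; 4 of 7 at an unadjusted p below 0.05). The habenular factor Pou4f1 was at most 0.0278 RPKM and was listed at 0 in 2 PBS libraries, while the habenular receptor Gpr151 had 0.862 to 5.31 RPKM, highest in miR replicate 3. The neuropeptide gene Tac1, which hypothalamic neurons also express, had r = 0.39. From a list of 5 genes of the midline thalamus only Hcrtr1 and Npffr1, receptors for orexin and for RFamide peptides, were tested, with r = 0.21 and -0.38. Neither followed the score of the 7 genes, although the punch can take in midline thalamic tissue. The other 3 genes of that list were below the filter.

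In the Wnt pathway, 14 of 19 genes were tested. Of these, 3 had an r of at least 0.8 with the score of the 7 genes, against 1.69% of 13266 other genes. Wnt3, a ligand, had 1.35, 1.16, 3.29, 3.19, 1.93 and 0.843 RPKM in miR replicates 1 to 6, and 1.98, 1.43, 2.91, 2.86, 1.45 and 1.00 RPKM in PBS replicates 7 to 12, an r of 0.99. Nkd1, a feedback inhibitor of the pathway, had r = 0.94. Lgr5, a receptor for R-spondins named after its value was seen, had r = 0.83.

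Other tested genes of the pathway had lower values, from -0.59 for Dkk3, a secreted protein of the Dickkopf family, to 0.70 for Znrf3, a ubiquitin ligase that removes Wnt receptors, both named after their values were seen. Ctnnb1, which encodes β-catenin, had r = 0.57, with a mean of 169 ± 9.49 RPKM over the miR punches against 156 ± 11.7 RPKM over the PBS punches (SD, n = 6 each). Gsk3b, the kinase that marks β-catenin for destruction, had r = 0.25. The score of the 14 genes passed with 0 of the 7 markers (permutation test, r of 0.34 to 0.75, lowest adjusted p = 0.051; 4 of 7 at an unadjusted p below 0.05). In miR against PBS, 0 of the 14 Wnt genes and 0 of the 17 relay genes passed in limma. Their median log2 differences were 0.02 and -0.02. At an unadjusted p below 0.05 in limma the counts were 1 of 14 and 0 of 17, against 20.2% of all genes tested.

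Over all tested genes, the 10 outside the 7 with the highest r with their score were Prkch, Wnt3, Nptx2, Nbl1, Wls, Shox2, Tox3, Cpne4, 6330403A02Rik and Slitrk6, at 0.96 to 0.99. Prkch encodes protein kinase C eta, Nptx2 a secreted pentraxin of synapses, Nbl1 an antagonist of bone morphogenetic proteins, and Wls the carrier that Wnt proteins need for secretion. The 5 with the lowest r were Grik3 (-0.95), a kainate receptor subunit, the noncoding RNA Dlx6os1 (-0.93), Gad1 (-0.91), an enzyme that makes GABA, Traf3 (-0.90), a signalling adaptor, and Kcng1 (-0.90), a potassium channel subunit. Dlx6os1 overlaps Dlx6 on the other strand, and whether reads were counted by strand is not given in the sources used here. Gad1 averaged 88.5 RPKM over the libraries and lay between 54.2 and 129 RPKM.

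Each marker had its own closest genes by r over the 12 libraries. Those of Tcf7l2 were Gbx2, Shox2 and Ntng1 (0.98 each), and those of Gbx2 were Lhx9, Shox2 and Tcf7l2 (0.98 to 0.99). Zic1 was closest to its own family, Zic2 (0.98) and Zic4 (0.96), followed by Cdk5r1 (0.96). Calb2 was closest to Nptx2 (0.99), Camk2n1 (0.98) and Slc22a3 (0.97), and Prkcd to Cttnbp2 (0.96), Ccdc136 (0.95) and Slc29a1 (0.94).

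Lef1 was nearest to Gpr4 (0.96), Irf5 (0.94) and Cpne9 (0.92), and Rora had Fam49a (0.97) and Oxr1 (0.94) among its nearest. With the score of nuclear-retained RNAs, which separated 4 PBS libraries from the rest, Lef1 had r = 0.45, Prkcd 0.46 and Rora -0.52. None of these passed (permutation test, lowest adjusted p = 0.214 over the 7 markers). With that score as a covariate, the log2 difference, miR minus PBS, was 0.12 ± 0.21 for Rora, -0.18 ± 0.26 for Lef1 and 0.15 ± 0.22 for Prkcd (SE), against 0.28, -0.33 and -0.13 without it.

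The thalamic order was the second axis of the data. With the 7 genes left out, principal component 1 of the tested genes took 36.9% of the variance and had an r of 0.06 in size with the score of the 7 genes, against 0.96 with the nuclear-retained RNAs. Component 2 took 18.0% and had an r of 0.91 in size with the score. Glial and vascular markers had no detectable relation with the 7 genes. The scores of oligodendrocyte, astrocyte, endothelial, choroid plexus and suprachiasmatic nucleus genes passed with 0 of the 7 markers (permutation test, r between -0.45 and 0.54, lowest adjusted p = 0.194; 0 of 7 for each list at an unadjusted p below 0.05 by Pearson's r).

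To show what lies upstream of genes that vary together, promoter windows were read from RefSeq's table for GRCm38.p6, a later build than that of the deposited coordinates. It held 11 windows for 6 of the 7 genes; Calb2 was not among them. The windows shown are both of Tcf7l2 and that of Gbx2, the closest pair, and the 2 that hold letters bound by TCF/LEF proteins. Each gives 250 bases before a start site, 5′ to 3′ on the gene's strand: Tcf7l2 from chr19:55741560-55741809 and chr19:55895071-55895320 (plus), Gbx2 from chr1:89931177-89931426 (minus), Lef1 from chr3:131156044-131156293 (plus) and Prkcd from chr14:30626209-30626458 (minus). Capitals mark matches to either of 2 motifs on either strand. The TCF/LEF motif was CTTTGA, which reads TCAAAG where it lies on the opposite strand. The GC box was GGGCGG, which reads CCGCCC where it lies on the opposite strand.
Tcf7l2, upstream start: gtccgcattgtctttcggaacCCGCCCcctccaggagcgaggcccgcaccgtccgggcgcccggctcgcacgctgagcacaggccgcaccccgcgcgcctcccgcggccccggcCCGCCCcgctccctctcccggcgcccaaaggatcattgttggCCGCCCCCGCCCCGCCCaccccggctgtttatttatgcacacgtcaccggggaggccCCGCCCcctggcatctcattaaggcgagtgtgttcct
Tcf7l2, downstream start: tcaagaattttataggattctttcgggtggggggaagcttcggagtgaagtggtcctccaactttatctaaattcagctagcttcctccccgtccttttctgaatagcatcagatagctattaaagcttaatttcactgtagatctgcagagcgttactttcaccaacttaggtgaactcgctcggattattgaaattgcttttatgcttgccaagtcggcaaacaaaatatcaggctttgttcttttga
Gbx2: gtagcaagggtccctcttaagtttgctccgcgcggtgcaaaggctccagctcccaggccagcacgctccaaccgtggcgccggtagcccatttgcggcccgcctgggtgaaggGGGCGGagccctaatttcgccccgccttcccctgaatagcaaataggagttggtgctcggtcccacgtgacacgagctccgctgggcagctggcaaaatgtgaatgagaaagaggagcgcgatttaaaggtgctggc
Lef1: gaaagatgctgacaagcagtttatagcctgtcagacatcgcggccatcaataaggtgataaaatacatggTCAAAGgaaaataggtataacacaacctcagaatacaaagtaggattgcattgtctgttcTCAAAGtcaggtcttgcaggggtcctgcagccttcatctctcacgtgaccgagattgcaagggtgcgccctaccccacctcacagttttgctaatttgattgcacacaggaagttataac
Prkcd: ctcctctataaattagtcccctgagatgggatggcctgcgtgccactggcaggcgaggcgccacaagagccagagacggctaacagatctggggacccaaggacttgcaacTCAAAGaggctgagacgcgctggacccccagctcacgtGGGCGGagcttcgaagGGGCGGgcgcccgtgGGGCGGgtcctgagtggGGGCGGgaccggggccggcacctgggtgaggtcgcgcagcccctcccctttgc

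The upstream Tcf7l2 window held 6 GC boxes, some of which touch or overlap, the downstream one held 0, and Gbx2 held 1. The starts of these 2 windows are 153511 bases apart, as are the 2 starts of the Tcf7l2 rows in the deposited table, where the row used here has the downstream start. The TCF/LEF letters occurred 2 times in this Lef1 window, 1 of 4 for that gene, and 1 time in the Prkcd window, 139 to 134 bases before the start site and upstream of 4 GC boxes. Over all members, 2 of 11 windows held the TCF/LEF letters, against 13.8% of 32851 windows, and 7 of 11 held a GC box, against 32.7%. Of those 7, 2 are Lef1 windows that share 224 bases and the same GC box. The 2 motifs share no letters in these windows. A match is a description of the sequence, and its use in these cells was not tested.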

How the data were processed

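The deposited table gives RPKM for 30399 RefSeq transcripts, with a column per animal. The submitters' processing notes name mm9 and edgeR, the latter with no role stated; how reads were aligned, counted and scaled is not given in the sources used here. Begin and end positions were read as 1-based. Depth was taken from the smallest steps of the values (all within 2% of a sum of steps). Libraries were TruSeq Stranded mRNA, single-end, run on 2 lanes, per the labels' protocols.

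Of 913 rows without a symbol, 868 were named by RefSeq accession. Values were analysed as log2(RPKM + 0.5), which understates the changes of low genes, with limma 3.58.1 in R 4.3.3 (variance trend, 2-sided, Benjamini-Hochberg over 13273 genes). List scores are means of gene-wise z-scores over at least 3 tested genes. Correlations used permutation tests written in Python 3.11.15 with numpy 2.4.6. The scripts were tested on simulated data. The members and lists were chosen with earlier results of these data known. Named genes are the members, the 10 highest and 5 lowest by r with their score, the 3 closest to each member, and for lists on thalamus, PVN and Wnt the 2 of highest level and 2 of highest r; a few of these genes are not reported here.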

Additional observations from a re-analysis of the deposited data

How the results depend on the processing

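None of the 7 genes passed in any of 27 alternatives (pseudocounts, filters, scalings, GC correction, covariates, transcript rows, left-out libraries). Over genes and alternatives this made 187 values, with a lowest limma adjusted p of 0.144. Lef1 (-0.45 to -0.18) and Rora (0.12 to 0.36) kept their sign but not their size. Rora was 0.12 with nuclear-retained RNAs as covariate and without PBS replicates 8, 9, 10 and 12, 0.16 after GC correction and 0.17 without PBS replicate 12; Lef1 was -0.18 with that covariate. The count of all genes passing between miR and PBS, 0 as reported and 0 with the score of the 7 genes as covariate (added after seeing the data), rested on PBS replicates 7 and 11: it was 3025 with library weights, 3107 without both, and 0 to 909 with 1 library left out (909 without PBS replicate 7, 429 without PBS replicate 11, 1 without miR replicate 3). The cause was not tested. Signs reversed as follows in log2, miR minus PBS. Tcf7l2 was 0.13 with library weights, 0.020 without PBS replicates 7 and 11, and -0.44 to 0.32 leaving out 1 library. Gbx2 was -0.43 with nuclear-retained RNAs as covariate, -0.043 with a pseudocount of 0.1 RPKM, -0.44 without PBS replicates 8, 9, 10 and 12, and -0.38 to 0.44 leaving out 1. Zic1 was -0.089 with that covariate, -0.0064 with the PVN score as covariate, -0.0039 after quantile normalization, -0.13 without those 4 libraries, and -0.15 to 0.16 leaving out 1. Prkcd was 0.15 with the nuclear covariate and 0.14 without those 4. Calb2 was 0.025 after GC correction and -0.16 to 0.10 leaving out 1.

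Of the correlated pairs, 15 to 19 of 21 passed leaving out 1 library (15 without PBS replicate 12) and 10 of 10 at a filter of 5 RPKM, which left 5 genes. Relations of the markers with list scores, 12 of 84 as reported, numbered 22 with no filter, 9 without PBS replicates 8, 9, 10 and 12, and 11 to 18 leaving out 1 library (18 without miR replicate 1). With 6 animals a group at 22.8 to 45.1 M reads, Lef1 rests on as few as 48.0 reads and Gbx2 on as few as 24.2. No paired analysis was possible because replicates 1 to 6 and 7 to 12 share no number.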

Other observations

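Scores of suprachiasmatic nucleus and oligodendrocyte genes also differed between punches. Over the 12 libraries they passed with none of the 7 markers, and what lay behind the differences was not tested. The score of suprachiasmatic nucleus genes, from the clock nucleus in front of the PVN, was 2.19 in miR replicate 5 and at most 0.52 in the other 11 libraries; the summed level of the 6 genes was 6.15 to 37.3 RPKM in miR and 5.197 to 9.35 RPKM in PBS punches. The score of oligodendrocyte genes was highest in PBS replicate 7, at 2.16, and lowest in PBS replicate 11, at -1.48, the same libraries that were lowest and highest in PVN genes. Its summed level was 491 to 811 RPKM in miR and 329 to 1314 RPKM in PBS punches. Among miR punches alone that score had r = 0.79 with the score of the 7 genes, and among PBS punches 0.07, over 6 libraries each and with no test.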
